A study of Rattus norvegicus with 6 samples.

Results

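The genes examined were the 8 that encode the calcitonin gene-related peptides (CGRP) and the parts of their receptors, namely Calca, Calcb, Adm, Calcrl, Ramp1, Ramp2, Ramp3 and Crcp. They were chosen by gene name, and each name stood in 1 row of the 25689 rows of the count table. RNA was sequenced from neurons of L1-L2 dorsal root ganglia (DRGs) from Spontaneously Hypertensive Rats (SHRs), in 3 samples after ablation of the perirenal adipose tissue (PRATA) and 3 after a sham operation. All rats were SHRs labelled wild type with an age of 6 to 8 weeks, although the study's methods give an older age at purchase, and the ganglia were taken 4 weeks after surgery. The comparison asks which genes differ in these neurons once the fat around the kidney has been ablated. Neurons were parted from glial cells only by how fast they adhered to the dish, and the labels do not say whether a sample was 1 animal or a pool, so p-values measure the spread between these samples.

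CGRP is a vasodilator peptide that sensory neurons make and release from their peripheral and central endings. Calca encodes both calcitonin and the alpha form of CGRP, which arise by alternative splicing, and Calcb encodes the beta form. The receptor is a G protein-coupled receptor, the Calcrl product, that needs a single-pass partner: with the Ramp1 product it binds CGRP, and with the Ramp2 or Ramp3 product it binds adrenomedullin, the peptide that Adm encodes. Crcp encodes a small protein that couples the receptor to its signalling and is also a subunit of RNA polymerase III.

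The bases before the start of transcription are shown for 3 members that stand for a CGRP gene, a receptor partner and adrenomedullin, with Calca and Ramp3 at higher mean levels after PRATA and Adm at a lower one. Of the 8 members, 6 matched the RefSeq promoter table (build GRCr8), and Calcb and Ramp2 did not. Each run holds the 250 bases before the annotated start, read 5′ to 3′ on the strand of the gene. Capitals mark the cAMP response element half-site TGACG in Calca, the E-box CANNTG in Ramp3 and the TATA motif TATAA in Adm, whose copies on the 2 strands overlap.
Calca, chr1:178317530-178317779, minus strand: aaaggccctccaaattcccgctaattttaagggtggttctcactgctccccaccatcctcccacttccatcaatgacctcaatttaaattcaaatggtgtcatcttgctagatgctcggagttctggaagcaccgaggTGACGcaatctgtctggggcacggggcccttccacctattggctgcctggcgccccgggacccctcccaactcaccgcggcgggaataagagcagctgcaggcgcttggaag
Ramp3, chr14:85741064-85741313, plus strand: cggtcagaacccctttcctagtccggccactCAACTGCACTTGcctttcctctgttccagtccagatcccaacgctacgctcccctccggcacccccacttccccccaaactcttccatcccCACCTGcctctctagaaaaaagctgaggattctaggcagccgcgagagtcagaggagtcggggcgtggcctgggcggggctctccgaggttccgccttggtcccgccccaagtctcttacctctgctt
Adm, chr1:174179950-174180199, plus strand: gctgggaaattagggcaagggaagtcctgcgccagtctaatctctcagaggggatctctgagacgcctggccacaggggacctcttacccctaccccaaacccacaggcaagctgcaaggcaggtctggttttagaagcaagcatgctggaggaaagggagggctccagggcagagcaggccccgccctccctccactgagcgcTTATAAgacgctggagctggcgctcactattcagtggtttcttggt

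Both strands were searched for these motifs, for the core ACGTG of the hypoxia response element and for the CCAAT box. The half-site stood 112 to 108 bases before the Calca start and in no other of the 6 members, and 18.2% of all 33469 promoter windows of this length hold it. Calca also held a CCAAT box on the reverse strand, 75 to 71 bases before the start (34.0% of all windows), and 2 E-boxes. Ramp3 held 3 E-boxes and Ramp1 2, and 65.5% of all windows hold at least 1. The TATA motif of Adm lay 46 to 41 bases before the start (24.0% of all windows), and the hypoxia core was found in Crcp alone of the 6 (16.6% of all windows). The Calca and Ramp3 windows held 56.4% and 61.6% G and C, and the median over all windows was 51.2%. A match of letters is a description of the window and not a bound site.

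The libraries held from 5892967 counts (sham replicate 2) to 15226952 counts (sham replicate 1), and no 2 samples held identical counts. Levels are given as CPM, the reads of a gene scaled to library size by edgeR with its TMM factors, and 3 reads, taken as the floor of detection, corresponded to between 0.207 and 0.468 CPM. Sensory neuron markers were abundant in every sample, with a summed level of 17430 to 25540 CPM after PRATA and 12440 to 18900 CPM after sham for 26 genes. Markers of satellite glia (3471 to 8983 CPM for 12 genes), Schwann cells (702 to 1576 CPM for 12 genes), fibroblasts (703 to 3372 CPM for 13 genes), mural cells (169 to 365 CPM for 12 genes), endothelium (47.8 to 254 CPM for 14 genes) and macrophages (34.0 to 126 CPM for 15 genes) were also present, with ranges that overlapped between the groups. In bulk RNA, fewer cells of a type and less RNA per cell cannot be told apart. A pair of 7SL RNA gene copies set PRATA replicate 3 and sham replicate 1 apart: one copy took 1.10% and 0.500% of their joint reads there, and 50.7% to 52.7% in the remaining 4 samples.

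Of the 8 genes, 7 passed the filter on low counts and were tested among 14919 genes, and Ramp1 did not pass. Both CGRP genes, Ramp2 and Ramp3 had higher levels after PRATA, with folds of 1.81 for Calca, 1.62 for Calcb, 1.75 for Ramp2 and 2.05 for Ramp3, and none of these 4 overlapped between the groups. Adm, Calcrl and Crcp had lower mean levels after PRATA. By the quasi-likelihood test of edgeR, adjusted after Benjamini and Hochberg, 0 members had an adjusted p under 0.05, as had 0 of all 14919 genes (0%), whereas 2 members did in DESeq2 (234 genes higher and 510 lower in all) and 4 in limma voom with sample quality weights (447 and 726). At an unadjusted p under 0.05, 4 members were higher and 0 lower in edgeR, where 8.19% of all genes tested were higher and 10.1% lower at that p. Groups without overlap were seen in 4 members on the higher side and 1, Crcp, on the lower, beside 11.6% and 11.2% of all genes tested.

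**Figure D1:**
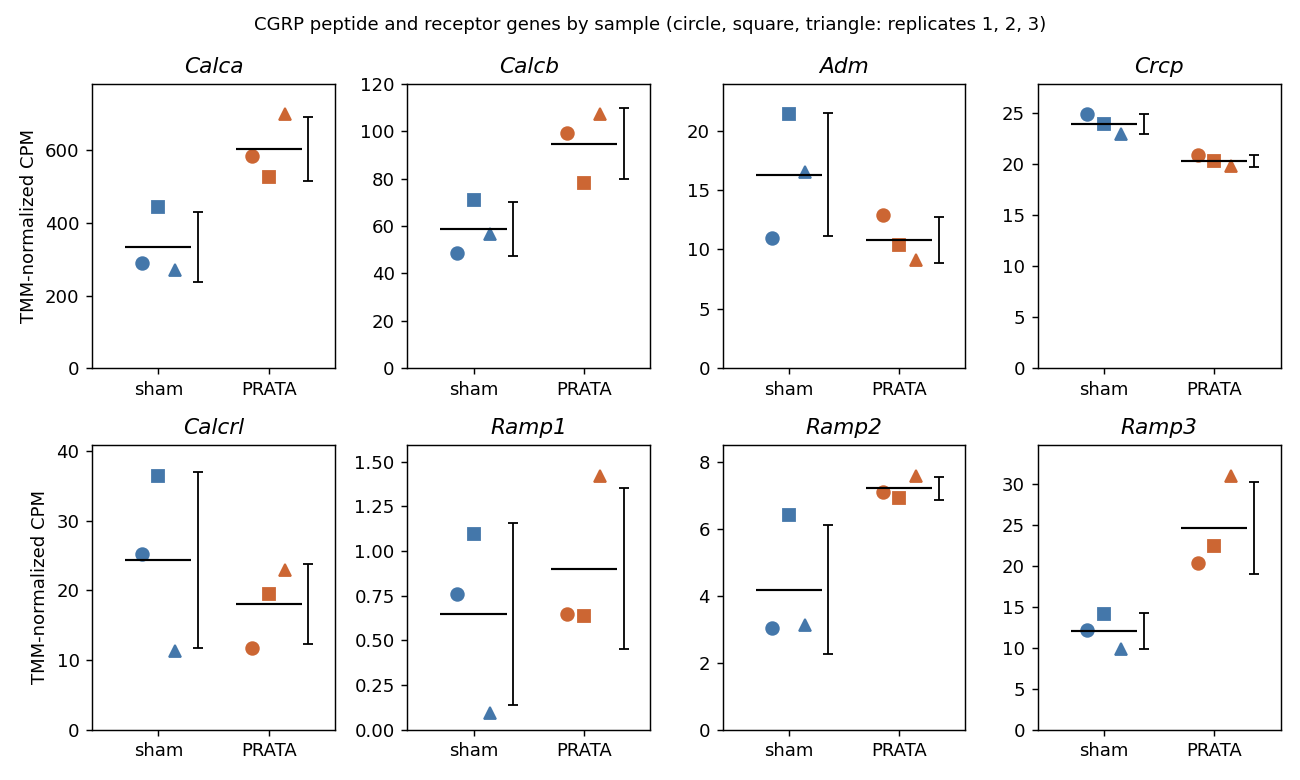
TMM-normalized CPM of the 8 genes in each of the 3 sham and 3 PRATA samples, on linear axes from 0 that differ between panels. Symbols stand for replicates 1, 2 and 3, horizontal lines for group means and bars for the SD. Calca, Calcb, Ramp2 and Ramp3 do not overlap between the groups and are higher after PRATA, Crcp does not overlap and is lower, and Adm, Calcrl and Ramp1 overlap.

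The main CGRP gene, Calca (ENSRNOG00000011130), had the most reads of the 8 genes in every sample. It was found at 585, 527 and 700 CPM in PRATA replicates 1, 2 and 3 and 289, 444 and 270 CPM in sham replicates 1, 2 and 3. The lowest PRATA sample thus stood above the highest sham sample, sham replicate 2, and the other two sham samples were close to each other. The means were 604 ± 88.1 CPM (SD, n = 3) and 334 ± 95.5 CPM (SD, n = 3). The log2 fold change was 0.85 (standard error 0.25, unadjusted p = 0.00953, adjusted p = 0.175, edgeR's quasi-likelihood test). Without sham replicate 2 it was 1.11 with an adjusted p of 0.0380 in edgeR. In that fit 162 genes were higher and 559 lower at an adjusted p under 0.05. With any of the other samples left out, the log2 fold change of Calca stayed between 0.73 and 0.95. Its adjusted p was then 0.278 to 0.550 in edgeR. In the 4 samples alike in 7SL RNA copy the difference of mean log2 CPM was 0.68 (unadjusted p = 0.0684 in an edgeR fit on these 4). Between the remaining pair, which has 1 sample of each group, it was 1.27. The gene-level counts do not part the calcitonin and CGRP messages of Calca.

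The second CGRP gene, Calcb (ENSRNOG00000011074), lies next to Calca on chromosome 1 of the RefSeq assembly GRCr8, with 0 protein-coding genes between them. It was at 99.1, 78.1 and 107 CPM in PRATA replicates 1 to 3 and at 48.5, 71.0 and 56.8 CPM in sham replicates 1 to 3. The groups came close at PRATA replicate 2 and sham replicate 2, as they did for Calca. For Calcb the log2 fold change was 0.69 (standard error 0.20, unadjusted p = 0.00922, adjusted p = 0.175, edgeR). Leaving out each sample in turn gave 0.55 to 0.85. The difference of mean log2 CPM was 0.47 within the 4 samples alike in 7SL RNA copy and 1.14 between the remaining pair. An edgeR fit on the 4 gave an unadjusted p of 0.0921.

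Because the coding parts of both genes are alike, the split of shared reads between them rests on the counting. The submitters' notes name RSEM, but the sources used here do not state which tool made the deposited counts. Their sum does not depend on how shared reads were divided, though it would on whether they were dropped, and was 684, 605 and 807 CPM after PRATA and 338, 515 and 327 CPM after sham. Every PRATA sample held more CGRP reads than every sham sample, with a difference of 0.85 on the log2 scale (two-sided exact permutation test, p = 0.10, which is the lowest possible with 3 against 3). Within a library, the ratio of the 2 genes is free of depth and scaling. There were 5.90, 6.75 and 6.53 Calca reads per Calcb read in PRATA replicates 1 to 3 and 5.97, 6.25 and 4.75 in sham replicates 1 to 3. The counting intervals (95%, exact binomial) ran from 5.47 to 7.22 over the PRATA samples, and sham replicate 3, at 4.35 to 5.20, lay under the intervals of all other samples. As a share, Calca took between 82.6% and 87.1% of the CGRP reads. The mean log2 ratio was 2.67 ± 0.10 after PRATA and 2.49 ± 0.21 after sham (SD), with overlapping groups. The difference of 0.18 was not larger than the spread between samples (exact permutation test, two-sided, p = 0.30), and it does not show that the ratio was the same. Without sham replicate 3 the difference was 0.06. The reads are not per length, so the ratio does not give the number of Calca molecules per Calcb molecule.

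**Figure D2:**
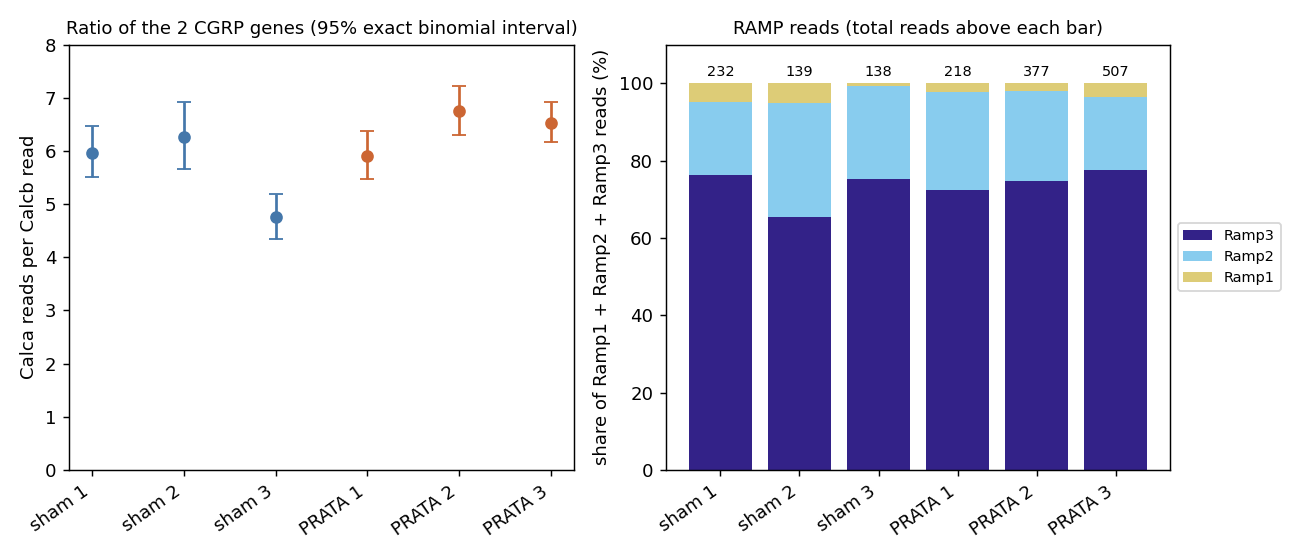
Left, Calca reads per Calcb read in each sample with its 95% exact binomial interval. Right, the share of Ramp1, Ramp2 and Ramp3 in their summed reads, with the sum of reads above each bar. The ratio overlaps between the groups, from 4.75 to 6.25 in sham and 5.90 to 6.75 in PRATA samples, and Ramp3 takes between 65.5% and 77.5% of the RAMP reads in every sample.

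The receptor gene Calcrl (ENSRNOG00000054695) had no direction that held across samples. Its level was 11.7, 19.4 and 22.9 CPM after PRATA and 25.3, 36.5 and 11.3 CPM after sham, so that the lowest and the highest of all 6 samples were both sham. Its log2 fold change was -0.42 (standard error 0.42, unadjusted p = 0.341, adjusted p = 0.620, edgeR). It was -0.02 without sham replicate 2 and -0.76 without sham replicate 3. The summed level of 14 endothelial markers, among them Cdh5, Kdr and Tie1, was 98.8, 178 and 216 CPM after PRATA and 107, 254 and 47.8 CPM after sham. The sample with the highest endothelial sum, sham replicate 2, also had the highest Calcrl level. The one with the lowest sum, sham replicate 3, had the lowest Calcrl level. Sham replicate 1 departed from this order, with more Calcrl than PRATA replicates 2 and 3 but a lower endothelial sum. The remaining samples stood in the same order on both. The part of endothelial RNA in the Calcrl level was not tested.

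The partner that gives the receptor its affinity for CGRP, Ramp1 (ENSRNOG00000019926), was scarcely detected. It had 5, 8 and 18 reads in PRATA replicates 1 to 3 and 11, 7 and 1 in sham replicates 1 to 3, which is 0.645, 0.637 and 1.42 CPM and 0.760, 1.09 and 0.0945 CPM. Sham replicate 3 was under the floor of 3 reads, and its exact Poisson interval (95%) ran from 0.0253 to 5.57 reads. In all, 31 reads fell on Ramp1 after PRATA and 19 after sham, and a difference was not detectable with so few reads. Ramp1 took between 0.725% and 5.04% of the reads on the 3 RAMP genes. The mean share was 2.65% ± 0.780 after PRATA and 3.50% ± 2.41 after sham (SD), a difference within the spread (exact permutation test, two-sided, p = 0.70). Without sham replicate 2 the difference was -0.0777 percentage points and without sham replicate 3 it was -2.23. The Poisson intervals hold the counting error alone, because PCR copies of a molecule were not told apart.

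Ramp2 (ENSRNOG00000020415), a partner in the adrenomedullin receptor, was at 7.10, 6.93 and 7.59 CPM after PRATA and 3.04, 6.40 and 3.12 CPM after sham. The PRATA samples were alike, and sham replicate 2 lay just under them while the other two sham samples were well below. The log2 fold change was 0.81 (standard error 0.35, unadjusted p = 0.0471, adjusted p = 0.267, edgeR). Without sham replicate 2 it was 1.23. With each sample left out in turn, the unadjusted p stayed under 0.05 in 1 of 6 fits. The difference of mean log2 CPM was 0.63 within the 4 samples alike in 7SL RNA copy and 1.27 in the remaining pair. An edgeR fit on the 4 gave an unadjusted p of 0.209.

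Ramp3 (ENSRNOG00000053766), the other adrenomedullin partner, had the largest log2 fold change and the smallest p of the 7 genes tested. It was at 20.4, 22.5 and 31.1 CPM after PRATA and 12.2, 14.2 and 9.82 CPM after sham. The groups were well apart, and sham replicate 2, the highest sham sample, was below PRATA replicate 1 by more than the whole range of the sham samples. Ramp3 had a log2 fold change of 1.03 (standard error 0.24, unadjusted p = 0.00230, adjusted p = 0.156, edgeR). It lay between 0.83 and 1.16 with each sample left out in turn, with an unadjusted p under 0.05 in 6 of 6 fits. The difference of mean log2 CPM was 0.85 within the 4 samples alike in 7SL RNA copy and 1.33 in the remaining pair. An edgeR fit on the 4 gave an unadjusted p of 0.0205.

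Ramp3 held most of the RAMP reads in every sample, with 72.5%, 74.8% and 77.5% after PRATA and 76.3%, 65.5% and 75.4% after sham, although reads are not per length. The means differed by 2.56 percentage points, within the spread (exact permutation test, two-sided, p = 0.70). Ramp3 reads per Calcrl read, a ratio chosen after the values of both genes were seen, were 1.74, 1.16 and 1.36 after PRATA and 0.484, 0.389 and 0.867 after sham. Every PRATA sample had more Ramp3 than Calcrl reads and every sham sample fewer, with mean log2 ratios of 0.48 and -0.87. This is a description with no test, since the ratio was picked for these values.

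Crcp (ENSRNOG00000000901), which encodes the coupling protein, varied least within the groups. It was at 20.9, 20.2 and 19.8 CPM after PRATA and 24.9, 23.9 and 23.0 CPM after sham, so that every PRATA sample was below every sham sample by a small margin. The coefficient of variation was 2.83% and 4.02% within the groups, against 14.6% and 28.6% for Calca. The log2 fold change was -0.24 (standard error 0.16, unadjusted p = 0.171, adjusted p = 0.448, edgeR). Adm (ENSRNOG00000027030), the adrenomedullin gene, was at 12.9, 10.4 and 9.09 CPM after PRATA and 11.0, 21.4 and 16.5 CPM after sham. The groups overlapped through sham replicate 1, which lay within the PRATA range. The log2 fold change of Adm was -0.59 (standard error 0.28, unadjusted p = 0.0708, adjusted p = 0.310, edgeR). It was -0.35 without sham replicate 2 and -0.83 without sham replicate 1.

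**Figure D3:**
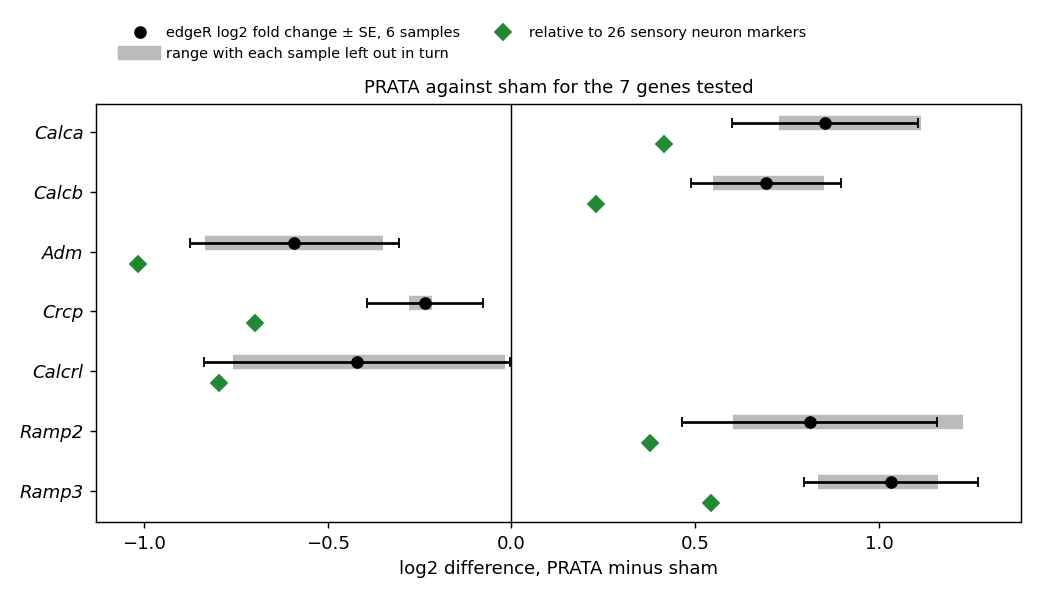
Log2 difference between PRATA and sham for the 7 genes tested. Black circles with bars are the edgeR log2 fold change and its standard error, grey bands the range with each sample left out in turn, and green diamonds the difference after the mean log2 CPM of 26 sensory neuron markers was subtracted in each sample. Calca, Calcb, Ramp2 and Ramp3 lie above 0 and Adm, Crcp and Calcrl below on both measures.

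Sensory neuron markers also had higher mean levels after PRATA. Their mean log2 CPM over 26 genes was 8.67, 8.31 and 8.69 in the PRATA samples and 7.85, 8.36 and 8.06 in the sham samples, higher by 0.46 after PRATA with overlapping groups (exact permutation test, two-sided, p = 0.20). Of the 26, 25 had a log2 fold change above 0, with a median of 0.47, as had 7760 of all 14919 genes tested, with a median of 0.02. At an unadjusted p under 0.05, 7 of the markers were higher and 1 lower in edgeR, beside 8.19% and 10.1% of all genes tested. Relative to these markers, Calca was higher by 0.41 and Calcb by 0.23 on the log2 scale after PRATA, and for both the groups still did not overlap (exact permutation test, two-sided, p = 0.10). With the median log2 CPM of the 26 markers within each sample in place of their mean, these differences were 0.66 and 0.48. This median of levels rests on the markers of middle rank in each sample. It is not the median log2 fold change of 0.47, which was not subtracted. Relative to the mean of the markers, Calcb kept a narrow spread. It ran from -2.04 to -1.94 in the PRATA samples and from -2.24 to -2.21 in the sham samples. Ramp2 and Ramp3 were higher by 0.38 and 0.54, with overlapping groups, whereas against the median of the markers they were higher by 0.63 and 0.79 and did not overlap. The difference for Adm was -1.02, with values from -5.47 to -4.91 after PRATA and -4.37 to -3.93 after sham, and that for Crcp was -0.70, both without overlap (exact permutation test, two-sided, p = 0.10). Against the median of the markers Crcp was at -0.45 and overlapped, and Adm was at -0.77 without overlap. The difference for Calcrl was -0.80, with overlap. Subtracting the mean of the markers lowers the difference of every gene by the same 0.46, and on CPM the groups of Adm overlapped. The share of all genes tested without overlap after this subtraction was not counted. The part of neuron content in these differences was not tested beyond this subtraction. Markers of satellite glia had log2 fold changes below 0 for 12 of 12 genes tested, with a median of -0.53, and those of fibroblasts for 12 of 13, with a median of -0.71. For Schwann cells, 11 of 12 were above 0, with a median of 0.75.

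**Figure D4:**
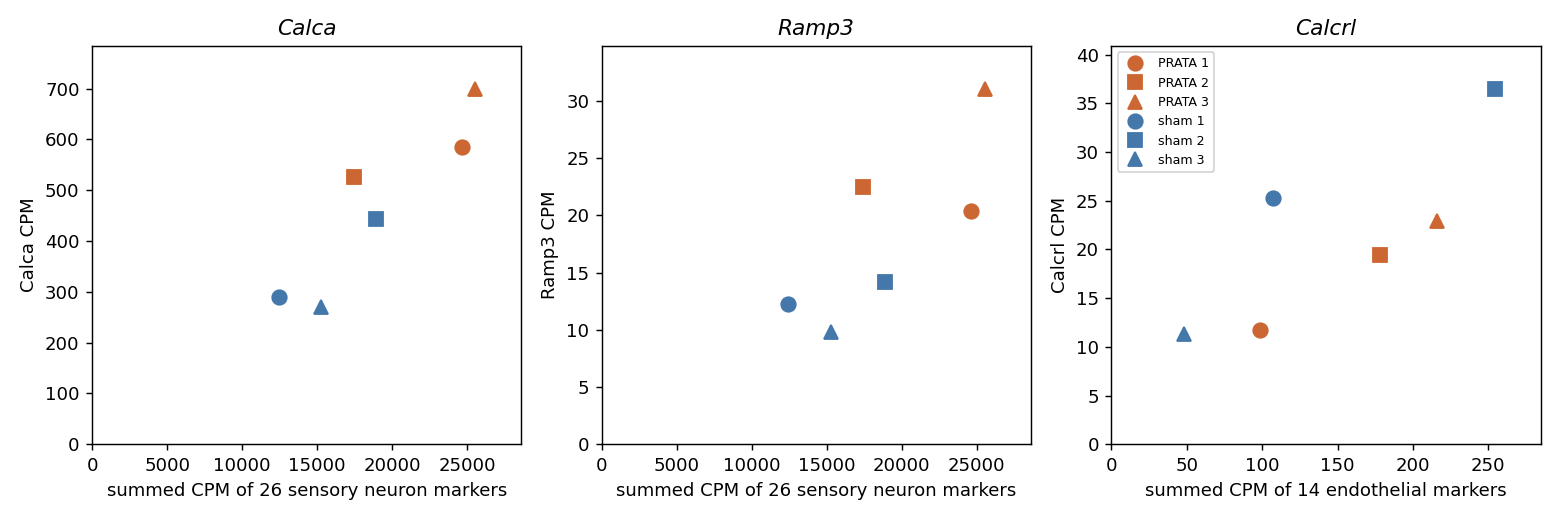
Level of Calca and Ramp3 against the summed CPM of 26 sensory neuron markers, and of Calcrl against the summed CPM of 14 endothelial markers, in each of the 6 samples. All axes are linear and start at 0. The sham and PRATA samples overlap in the marker sums, from 12440 to 18900 and 17430 to 25540 CPM for neurons, but not in Calca and Ramp3. The neuron sums overlap through sham replicate 2 and PRATA replicate 2. After the mean log2 CPM of the neuron markers is subtracted in each sample, Ramp3 overlaps and Calca does not.

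Of the other members of the calcitonin family, Calcr and Adm2 were near the floor. Calcr, which encodes the calcitonin receptor, had 0, 1 and 1 reads in the PRATA samples and 1, 9 and 5 in the sham samples. Adm2, the gene of a related peptide, had 0 reads in each PRATA sample and 2, 6 and 1 in the sham samples. Neither Calcr nor Adm2 passed the filter. Iapp, which encodes amylin, was tested and gave -0.24 as log2 fold change (edgeR adjusted p = 0.882, standard error 0.68), with 9 to 63 reads per sample.

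Of 17 genes tested that process, package and release neuropeptides, 13 had a log2 fold change above 0. Of the 17, 6 were higher and 0 lower at an unadjusted p under 0.05 and 11 did not pass, with a median log2 fold change of 0.38 beside 0.02 over all genes tested and 0.47 over the sensory neuron markers. Of all genes tested, 8.19% were higher and 10.1% lower at that p. The 6 became 1 without PRATA replicate 1, sham replicate 1 or sham replicate 3, 3 without PRATA replicate 3 and 9 without PRATA replicate 2. Over all genes tested, 548, 995, 593, 851 and 1160 were higher in those fits in that order, against 1222 with all samples. Vgf, which encodes a granin-like protein of secretory granules, was at 172, 183 and 212 CPM after PRATA and 81.7, 104 and 79.8 CPM after sham. Its groups did not overlap, and its log2 fold change of 1.10 had a standard error of 0.18 (edgeR adjusted p = 0.156). Chgb, the chromogranin B gene, had a log2 fold change of 0.69, and Cadps, which primes dense-core vesicles for release, one of 0.70, both with overlapping groups.

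Among genes of cAMP signalling, the pathway that the CGRP receptor drives, 8 of 26 tested were higher and 0 lower at an unadjusted p under 0.05 (8.19% and 10.1% of all genes), with a median of 0.45, close to the 0.47 of the sensory neuron markers. The 8 became 3 without sham replicate 3, 4 without PRATA replicate 1 or PRATA replicate 3, and 12 without sham replicate 2. The higher genes over the whole table numbered 593, 548, 851 and 2073 in those fits in that order, against 1222 with all samples. The adenylyl cyclase genes Adcy7, Adcy2 and Adcy8, whose products make cAMP, had the smallest p. Adcy7 was at 39.6, 34.1 and 34.5 CPM after PRATA and 21.9, 23.3 and 19.5 CPM after sham, which gave 0.74 as log2 fold change (edgeR adjusted p = 0.156, standard error 0.17). Those of Adcy2 and Adcy8 were 0.79 and 0.62. In all 3 the groups did not overlap. Genes of peptide breakdown gave 0 higher and 1 lower of 8 tested, with a median of -0.22, and the lower one was Thop1, a peptidase gene, at -0.62. Anpep and Ece2, next by p, had log2 fold changes of 1.23 and 0.47 that did not pass.

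Of 20 genes of RNA-binding proteins, some of which are known to steer the choice between the calcitonin and CGRP messages, 2 were higher and 2 lower at an unadjusted p under 0.05, with a median of -0.12. These counts are near the 8.19% and 10.1% of all genes tested. With each sample left out in turn they ran from 1 to 4 higher and from 0 (without sham replicate 3) to 8 (without sham replicate 2) lower. Lower genes over the whole table numbered 878 and 2181 in the latter 2 fits, against 1512 with all samples. Elavl3, a neuronal member of the Hu family, had a log2 fold change of 0.66, and Elavl1, its ubiquitous relative, one of -0.60, and neither overlapped between the groups. Srsf2, a splicing factor gene, had one of -0.75 with overlap, since sham replicate 2, at 102 CPM, was like the PRATA samples (102 to 114 CPM) and the other two sham samples were at 223 and 218 CPM.

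Of 18 subtype and transmitter genes of sensory neurons tested, 5 were higher and 2 lower at an unadjusted p under 0.05 (8.19% and 10.1% of all genes), with a median of 0.47, like that of the sensory neuron markers. The 5 became 3 without sham replicate 3 and 9 without sham replicate 2, where 593 and 2073 of all genes tested were higher, against 1222 with all samples. This list and the sensory neuron list share some genes. Adcyap1, which encodes the vasodilator peptide PACAP, was at 119, 115 and 86.8 CPM after PRATA and 40.6, 67.0 and 33.8 CPM after sham, which gave 1.18 as log2 fold change (edgeR adjusted p = 0.156, standard error 0.27). Kit, a receptor tyrosine kinase gene, had a log2 fold change of 0.77, and its groups did not overlap either. The 2 lower ones, named after their values were seen, were Ntrk2 and Runx1, with log2 fold changes of -1.04 and -0.79.

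Adm is a known hypoxia response gene, and of 25 genes of that response 2 were higher and 3 lower at an unadjusted p under 0.05, with a median of -0.09. These counts are near the 8.19% and 10.1% of all genes tested. The lower ones included Hmox1, the haem oxygenase gene, which was at 198, 268 and 606 CPM after PRATA and 1380, 1809 and 2729 CPM after sham, which gave -2.46 as log2 fold change (edgeR adjusted p = 0.156, standard error 0.47). Ldha, the lactate dehydrogenase A gene, had a log2 fold change of -0.69, and Ca9, a carbonic anhydrase gene with 1 to 16 reads per sample, one of 2.06. Of the 25, 11 had a log2 fold change above 0 and 14 below. Over the 115 genes tested of the 7 lists, 23 were higher and 8 lower at an unadjusted p under 0.05, beside 8.19% and 10.1% of all genes tested. Without sham replicate 2 these counts were 37 and 17, beside 2073 and 2181 of all 15438 genes tested. Without sham replicate 3 they were 10 and 4, beside 593 and 878 of 15758. Without PRATA replicate 1 they were 14 and 5, beside 548 and 858 of 15774. Without PRATA replicate 3 they were 15 and 6, beside 851 and 1149 of 15323. With all samples the counts over all genes were 1222 and 1512 of 14919. No gene of the lists had an adjusted p under 0.05 in edgeR.

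**Figure D5:**
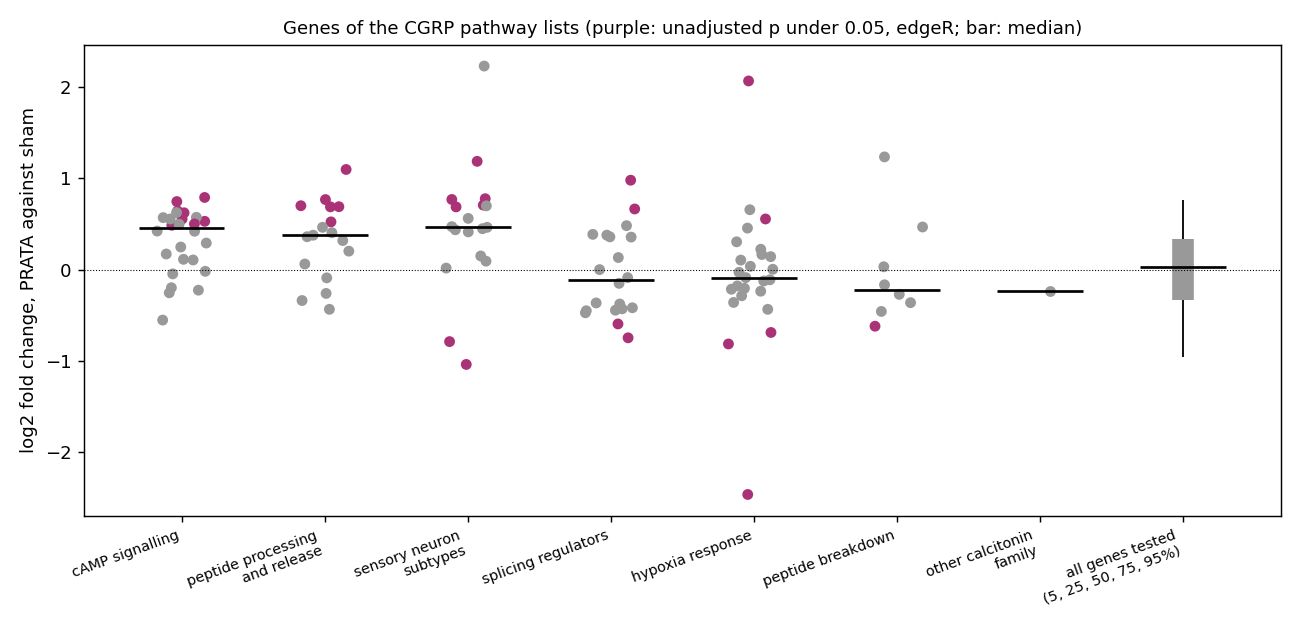
Log2 fold change of each gene tested in 7 lists around the CGRP pathway, with the median of each list as a bar and, at the right, the 5th to 95th percentile range of all genes tested. Purple points have an unadjusted p under 0.05 in edgeR. The lists for cAMP signalling, peptide processing and sensory neuron subtypes have medians of 0.45, 0.38 and 0.47, beside 0.02 over all genes tested and 0.47 over the sensory neuron markers.

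Across the 6 samples, log2 CPM of Calca correlated with that of Calcb (r = 0.96), Ramp2 (r = 0.96) and Ramp3 (r = 0.95), while r with Calca was -0.83 for Crcp, -0.41 for Adm and 0.10 for Calcrl. These are descriptions over 6 samples that share the group difference and the libraries, with no test. Of 10818 other protein-coding genes with a mean of at least 5 CPM, the most like Calca by Pearson's r over the 6 samples were Kif21a (0.997), Fchsd1 (0.996) and Paqr7 (0.996). For Calcb they were LOC108348250 (0.997), Plcxd3 (0.996) and Ppfia3 (0.995). Ramp3 was most like Alkal2 (0.994), Mfhas1 (0.993) and Celsr3 (0.992), and Ramp2 was most like LOC680121 (0.995), L1cam (0.994) and Gpi (0.993). For Calcrl they were Atp10a (0.992), Card6 (0.986) and Anxa3 (0.980), for Crcp Ankrd50 (0.970), LOC100365363 (0.970) and Eif2a (0.960), and for Adm Slirp (0.975), Herc4 (0.973) and Pop4 (0.969).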

How the data were processed

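RNA of L1-L2 DRG neurons was sequenced in 6 samples. The deposited values are raw read counts per gene, made by the authors without normalization. The submitters' processing notes name STAR 2.7.3a, RSEM and DESeq2, while the paper's methods name HISAT2, StringTie and Cuffdiff for values not used here. The counter, strand setting, genome build and annotation release are not given in the sources used here. If strand was ignored, reads of overlapping genes cannot be told apart.

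These counts entered edgeR 4.0.16 under R 4.3.3 (TMM, filterByExpr at count 10 and total 15, quasi-likelihood test, two-sided, Benjamini-Hochberg adjustment over the 14919 genes tested). Standard errors were derived from the log2 fold change and its F statistic. Log2 CPM used a prior count of 2. Single values were compared by an exact permutation test (SciPy 1.17.1). Alternatives were other size factors, no or a stricter filter, protein-coding genes alone, a robust fit, DESeq2 1.42.0, limma 3.58.1 (trend with a pseudocount of 1, and voom with quality weights), a replicate block, the 7SL copy as covariate and leaving out each sample. The main edgeR fit was tested on simulated data.

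The members and gene lists were chosen with earlier results of these data known. Named genes are the members, the up to 3 genes of each pathway list with the smallest p, and the 3 protein-coding genes most correlated with each member. A gene that this rule names is not reported here. Of the list genes, Adrbk1, Adrbk2, Smr2, Pecam1, Col1a2 and Col6a3 did not match a gene name, the first pair being older names of Grk2 and Grk3. Where a name had several rows, the one with most reads was used.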

Additional observations from a re-analysis of the deposited data

How the results depend on the processing

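Over 18 alternatives the log2 fold changes of the members kept their direction: 0.64 to 1.11 for Calca, 0.47 to 0.85 for Calcb, 0.83 to 1.16 for Ramp3, -0.76 to -0.02 for Calcrl, -0.28 to -0.19 for Crcp and -0.83 to -0.35 for Adm, and over 17 alternatives 0.58 to 1.23 for Ramp2, to which DESeq2 gave no adjusted p. The adjusted p came under 0.05 with DESeq2 for Calca (log2 fold change 0.83) and Ramp3 (1.02), hence 2 members, and with voom and sample quality weights for Calca (0.996), Calcb (0.76), Ramp2 (1.10) and Ramp3 (1.09), hence 4. With each sample left out in turn, Calca lay between 0.73 and 1.11, and between 0 and 1 members reached that adjusted p. The 1 member was Calca without sham replicate 2, a fit in which 162 genes were higher and 559 lower at that adjusted p. Over all alternatives, the adjusted p ran from 0.0233 to 0.550 for Calca and from 0.0130 to 0.550 for Ramp3. The replicate block gave 0.88 for Calca, 0.70 for Calcb and 1.02 for Ramp3 (edgeR adjusted p = 0.462, 0.462 and 0.461), and 12 higher and 4 lower genes over the pathway lists; at an unadjusted p under 0.05 it left 3 of the 4 higher members, since Ramp2 was at p = 0.0573 (edgeR), and the correlation of deviations between samples of one number averaged -0.25, so replicate numbers were not taken to pair samples. Over all 14919 genes tested, the replicate block had 621 higher and 907 lower at an unadjusted p under 0.05. Within the 4 samples alike in 7SL RNA copy, chosen after seeing the data, 13 and 5 genes of these lists passed. The counts over all 14808 genes tested were 885 and 1022 there. Ramp3 kept an unadjusted p under 0.05 in that edgeR fit, and Calca, Calcb and Ramp2 did not. With each sample left out in turn, the lists had 10 to 37 and 4 to 17, beside 548 to 2073 and 858 to 2181 over all genes. The cause of these shifts, in the lists and over all genes, was not tested. The ratio of Calca to Calcb, the summed reads and the Ramp1 share kept their direction, but the difference in log2 ratio ran from 0.06 (without sham replicate 3) to 0.26, and that in Ramp1 share from -2.23 (without sham replicate 3) to -0.0777 (without sham replicate 2) percentage points. Low read counts limit Ramp1, Calcr and Adm2 most.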
